A study of Mus musculus with 10 samples.

Results

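The fibroblast growth factor (FGF) system was examined in *Sox10*-H2BVenus+ sacral neural crest progenitors (NCPs) of the mouse lower urogenital tract, set against total embryo. Members were the genes whose platform symbol names an FGF, an FGF receptor, a Sprouty or Spred inhibitor, *Dusp6*, or *Etv1*, *Etv4* or *Etv5*, and whose probe set carries that symbol alone. They were 38 genes of 19937 on the array: 22 *Fgf* genes, 5 receptors, 4 Sprouty genes, 3 Spred genes, *Dusp6* and 3 *Etv* genes. The rule reads gene names, not levels. By platform annotation *Etv1*, *Etv5* and *Spred2* had a further probe set each. The probe set with the highest mean over the 10 arrays stood for the gene. Where these probe sets lie in the genome was not checked.

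NCP RNA came from Venus-positive cells sorted at E13 from mice that carry the Sox10-H2BVenus transgene, a fluorescent histone driven by *Sox10*. The study reports sorting these cells from dissociated pelvic ganglia. NCP RNA was run on 3 Affymetrix mouse Gene 1.0 ST arrays. Total embryo RNA was hybridized to 7 arrays of the same kind, and its stage is not given in the sources used here. The NCP samples are pools of several fetuses, and young neurons briefly keep the fluorescence, so the sort can hold cells that have left the progenitor state. By the codes in the array names, the 3 NCP arrays carry 3 RNAs, while the 7 total embryo arrays carry only 2 (3 and 4 arrays), so p-values here partly measure the spread between repeat arrays of 1 RNA.

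Secreted FGFs bind receptor tyrosine kinases together with heparan sulfate or Klotho proteins, and the receptors signal through the Ras and ERK kinases. Sprouty and Spred proteins and the phosphatase *Dusp6* dampen that signal, and together with the ETS factors *Etv4* and *Etv5* they are commonly transcribed in response to it. FGFs are known for roles in crest induction in frog and chick, in outgrowth of the genital tubercle and in signals between mesenchyme and epithelium.

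Levels are log2 values, and differences are NCP minus total embryo. The whole NCP arrays were compressed: the SD over all probe sets was 0.97 to 1.12 on the NCP arrays and 1.78 to 1.91 on the total embryo arrays. The 1190 genes of the olfactory and vomeronasal receptor families, silent in most tissues, had a median of 5.47 in NCPs and 3.80 in total embryo, and their 95th percentile, used below as a floor, was 6.52 in NCPs and 5.37 in total embryo. When genes were split into 10 equal bins by level in total embryo, the median log2 fold change ran from 1.86 in the lowest bin to -2.24 in the highest. Each member is therefore also given beside the 500 genes nearest to it in total embryo level, and after a level adjustment, in which each array's smoothed trend on level was subtracted. That adjustment removes any shift shared by genes of a level, whatever made it.

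The members' median log2 fold change was 0.23, against 0.08 for all genes. In the values as deposited, 11 of the 38 members were higher in NCPs (28.9%) and 8 were lower (21.1%), while 19 did not pass an adjusted p of 0.05. Of all probe sets tested, 39.6% were higher and 27.5% lower, so members were called no more often than the array as a whole. The 11 higher members were *Fgf1*, *Fgf4*, *Fgf5*, *Fgf11*, *Fgf16*, *Fgf17*, *Fgf20*, *Fgf22*, *Fgf23*, *Fgfr4* and *Etv4*. The 8 lower ones were *Fgf18*, *Fgfr1*, *Fgfr2*, *Spred1*, *Spred2*, *Dusp6*, *Etv1* and *Etv5*. All 11 increases lay among the 19 members dimmer in total embryo, and all 8 decreases among the 19 brighter ones. In 9 members every NCP array lay above every total embryo array (31.8% of all probe sets did so), and in 8 every NCP array lay below (21.5% of all probe sets).

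**Figure D1:**
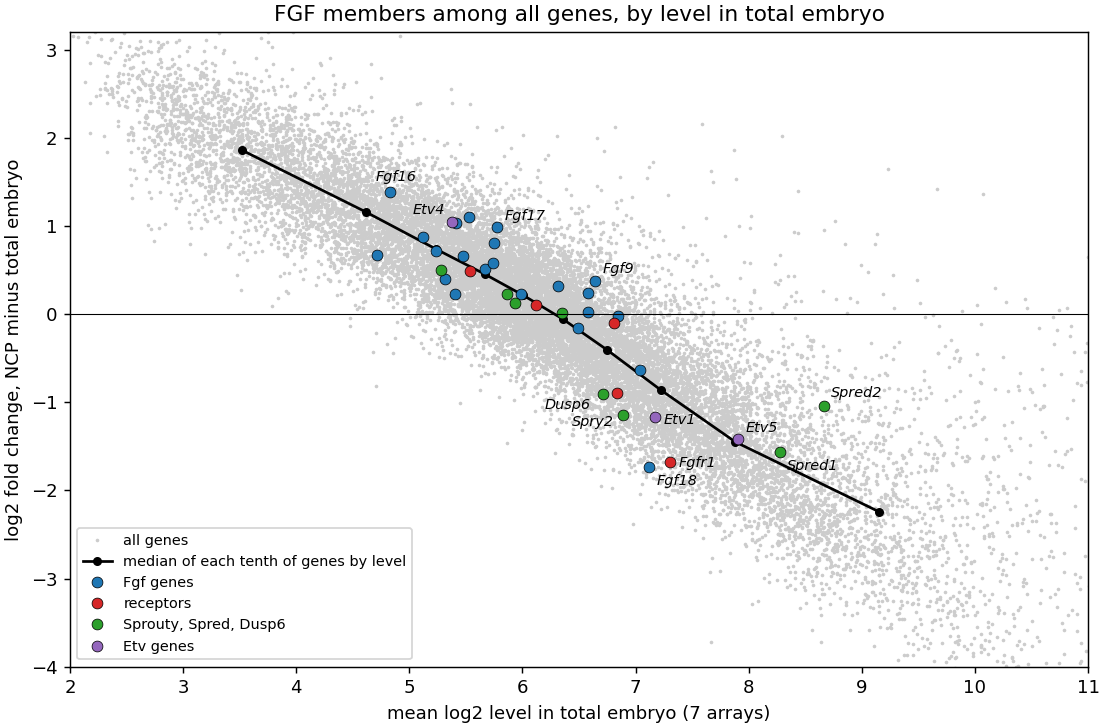
Log2 fold change (NCP minus total embryo) against mean log2 level in total embryo, for all genes (grey) and the 38 members (coloured by class), with the median of each of 10 equal bins of genes as a black line. Farthest from the median of genes of their level are *Fgf18* (-0.96), *Fgfr1* (-0.76) and *Spry2* (-0.67) below and *Spred2* (1.09), *Fgf9* (0.70) and *Fgf17* (0.63) above.

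Set beside genes of similar total embryo level, 29 of the 38 members were within 0.5 of their neighbours' median log2 fold change. The differences ran from -0.96 for *Fgf18* to 1.09 for *Spred2*. Between the quartiles of their neighbours, which hold 50% of those genes, lay 17 members, with 13 above and 8 below. After level adjustment 2 members were higher in NCPs, *Fgf17* and *Spred2*, with 10.3% of all probe sets called higher, and 2 were lower, *Fgf18* and *Fgfr1*, with 8.29% called lower. The other 34 did not pass. With arrays averaged per RNA code, 3 members were higher (*Fgf16*, *Fgf17* and *Etv4*; 20.4% of all probe sets) and 7 lower (the same 8 less *Dusp6*; 14.8% of all probe sets). With both steps together no member passed in limma, where 0 members were higher and 1 lower at an unadjusted p under 0.05, and 33 probe sets passed in all.

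**Figure D2:**
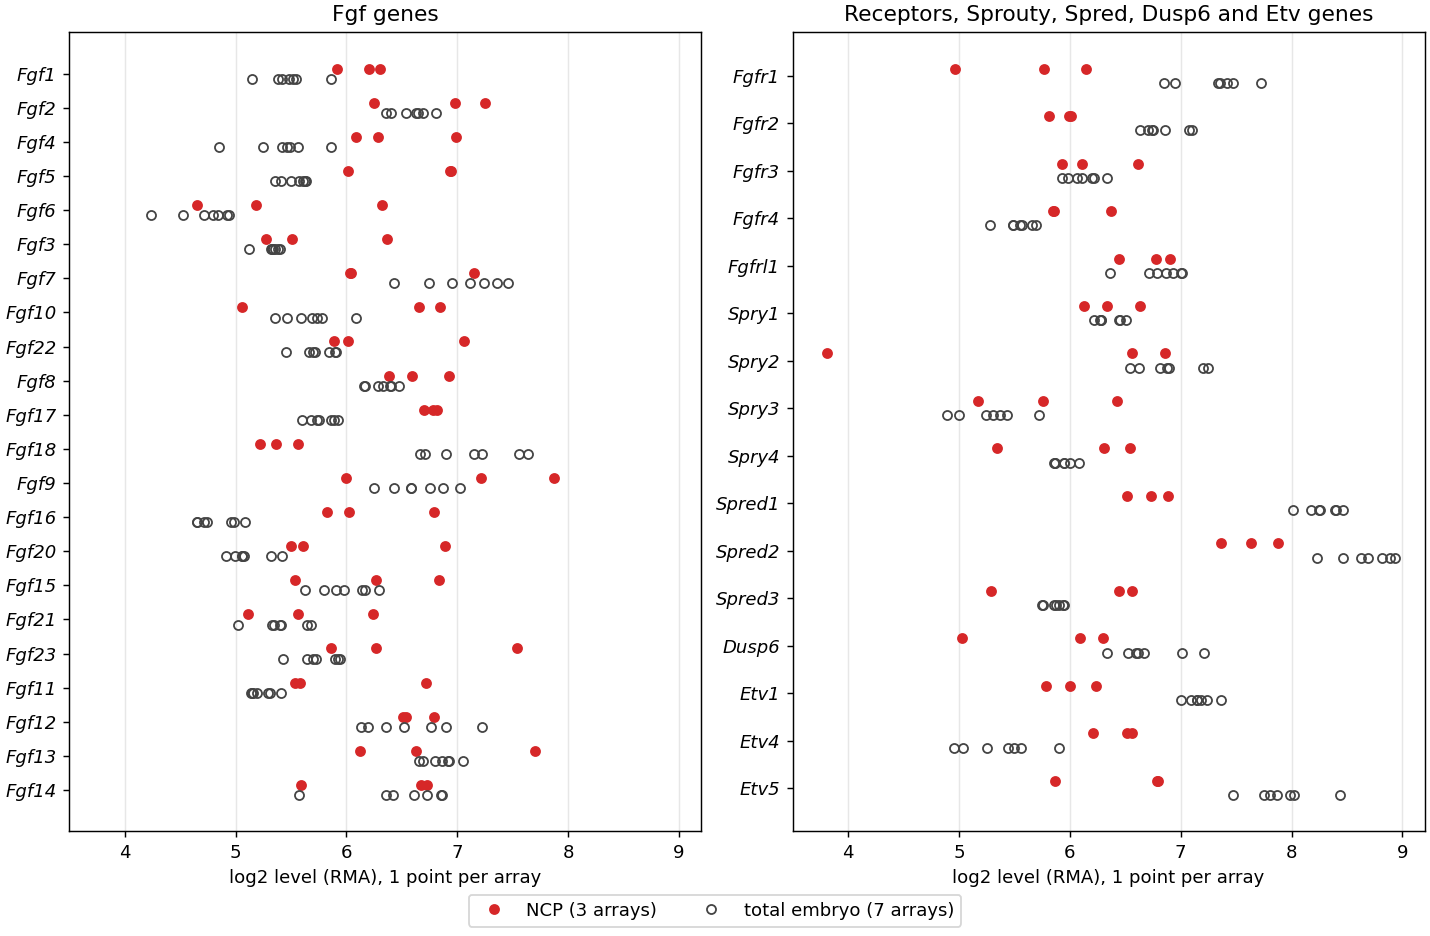
Log2 level of each member on each array, with NCP arrays as filled red points above and total embryo arrays as open points below. NCP points are more widely spread than total embryo points for 32 of the 38 members.

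Among the receptors, *Fgfr1* and *Fgfr2* were lower in NCPs, *Fgfr4* was higher, and *Fgfr3* and *Fgfrl1* did not pass. *Fgfr1*, the receptor kinase most widely used in mesenchyme and neural tissue, read 4.97, 5.76 and 6.15 on the NCP arrays, against 6.84 to 7.73 (median 7.35) in total embryo. Every NCP array lay below every total embryo array and below its own floor, with NCP replicate 1 lowest. The log2 fold change was -1.68 (95% interval -2.23 to -1.12, adjusted p = 8.68e-05), beside -0.92 for genes of its level, and -0.80 (95% interval -1.34 to -0.26, adjusted p = 0.043) after level adjustment. Without NCP replicate 1 the level-adjusted value was -0.45 (adjusted p = 0.15), so its call there rested on that array.

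*Fgfr2*, whose splice forms serve epithelium and mesenchyme, read 5.82, 6.01 and 5.99 in NCPs, against 6.64 to 7.10 (median 6.75) in total embryo. The groups did not overlap and the NCP arrays were close together. Its log2 fold change was -0.90 (95% interval -1.25 to -0.55, adjusted p = 0.000311), and after level adjustment -0.43 (95% interval -0.78 to -0.09, adjusted p = 0.077), which did not pass. *Fgfr3*, best known for restraining growth plate cartilage, read 5.93, 6.61 and 6.11 in NCPs and 5.92 to 6.33 (median 6.11) in total embryo. The ranges overlapped, and the log2 fold change was 0.10 (95% interval -0.28 to 0.48, adjusted p = 0.63).

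*Fgfr4*, the receptor through which liver responds to the gut hormone FGF15, read 5.86, 5.85 and 6.37 in NCPs, against 5.28 to 5.70 (median 5.55) in total embryo. All NCP arrays were above the total embryo arrays but below the floor, and NCP replicate 3 was the highest. The log2 fold change was 0.49 (95% interval 0.13 to 0.86, adjusted p = 0.02), beside 0.56 for its neighbours, and -0.06 (adjusted p = 0.838) after level adjustment. Without NCP replicate 3 it was 0.32 (adjusted p = 0.09). *Fgfrl1*, which binds FGFs but lacks a kinase domain, read 6.78, 6.44 and 6.90 in NCPs and 6.36 to 7.01 (median 6.87) in total embryo. It was the only receptor above the floor in NCPs by group mean, and its log2 fold change was -0.10 (95% interval -0.50 to 0.29, adjusted p = 0.624).

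The FGF8 subfamily held the *Fgf* genes that passed both as deposited and after level adjustment, in opposite directions. *Fgf17*, a ligand of the midbrain and cerebellar primordium, read 6.81, 6.70 and 6.79 in NCPs, against 5.6 to 5.92 (median 5.75) in total embryo. The NCP arrays lay within a narrow band above all total embryo arrays, and near their own floor. The log2 fold change was 0.99 (95% interval 0.68 to 1.3, adjusted p = 5.98e-05) and the level-adjusted one 0.60 (95% interval 0.29 to 0.91, adjusted p = 0.013). It stayed past the threshold without each NCP array, with level-adjusted values of 0.58 to 0.63.

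*Fgf18*, a ligand made by mesenchyme that acts on bone, cartilage and lung, read 5.22, 5.37 and 5.57 in NCPs, against 6.66 to 7.64 (median 7.15) in total embryo. The groups were far apart, and each NCP array was near the middle of the olfactory and vomeronasal receptor genes. The log2 fold change was -1.73 (95% interval -2.23 to -1.23, adjusted p = 2.83e-05), beside -0.78 for genes of its level, of which 1.40% were lower still. After level adjustment it was -1.02 (95% interval -1.51 to -0.53, adjusted p = 0.00827), and -0.92 to -1.08 without each NCP array. *Fgf8*, the organizer ligand of the isthmus and limb ridge, read 6.92, 6.59 and 6.39 in NCPs and 6.16 to 6.48 (median 6.33) in total embryo. These ranges overlapped, and the log2 fold change was 0.32 (95% interval -0.03 to 0.67, adjusted p = 0.098).

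**Figure D3:**
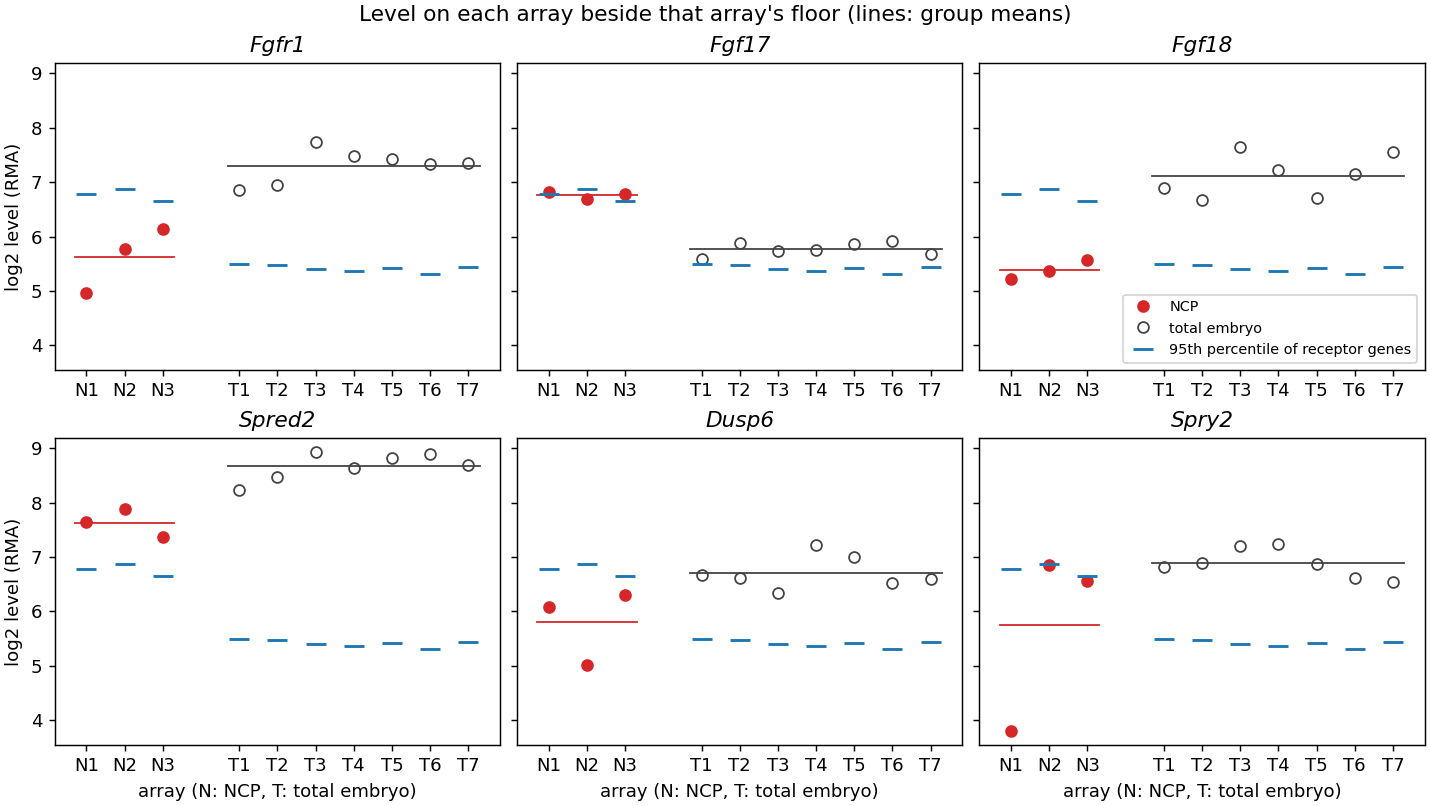
Log2 level on each array (N, NCP replicates; T, total embryo replicates) for *Fgfr1*, *Fgf17*, *Fgf18*, *Spred2*, *Dusp6* and *Spry2*, with group means as lines and each array's 95th percentile of olfactory and vomeronasal receptor genes as blue dashes. *Spred2* is above the dash on every array, whereas *Fgf18* and *Fgfr1* are below it on each NCP array and above it on each total embryo array.

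Besides *Fgf8* and *Fgf17*, 4 secreted ligands were above the floor in NCPs by group mean. *Fgf5*, known as a brake on hair growth, read 6.93, 6.95 and 6.02 in NCPs, against 5.36 to 5.64 (median 5.58) in total embryo. All NCP arrays were higher, with NCP replicate 3 nearest the total embryo arrays, and the log2 fold change was 1.1 (95% interval 0.66 to 1.54, adjusted p = 0.000396). After level adjustment it was 0.55 (adjusted p = 0.07). *Fgf23*, the bone hormone of phosphate balance, read 7.54, 6.27 and 5.86 in NCPs and 5.43 to 5.94 (median 5.73) in total embryo. NCP replicate 1 stood well above the rest and NCP replicate 3 lay inside the total embryo range. Its log2 fold change was 0.80 (95% interval 0.18 to 1.43, adjusted p = 0.025), and without NCP replicate 1 it was 0.31 (adjusted p = 0.159).

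*Fgf9*, a ligand exchanged between epithelium and mesenchyme in lung and gonad, read 7.87, 5.99 and 7.21 in NCPs and 6.25 to 7.02 (median 6.58) in total embryo. NCP replicate 2 was below all total embryo arrays while the other two were above them. This gave 0.38 (95% interval -0.31 to 1.07, adjusted p = 0.303) for the log2 fold change, and 0.90 (adjusted p = 0.00488) without NCP replicate 2. *Fgf2*, a growth factor used to keep crest cells in culture, read 6.98, 6.25 and 7.25 in NCPs and 6.36 to 6.81 (median 6.62) in total embryo. It behaved likewise, with NCP replicate 2 lowest, and its log2 fold change was 0.24 (95% interval -0.21 to 0.69, adjusted p = 0.314). Without that array it was 0.53 (adjusted p = 0.015).

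The intracellular FGFs are not secreted and bind voltage-gated sodium channels in neurons. *Fgf12* read 6.51, 6.54 and 6.79 in NCPs and 6.13 to 7.22 (median 6.52) in total embryo, with NCP values inside the total embryo range and a log2 fold change of 0.03 (95% interval -0.48 to 0.54, adjusted p = 0.917). *Fgf13*, which also binds microtubules, read 7.71, 6.63 and 6.12 in NCPs and 6.66 to 7.05 (median 6.86) in total embryo. Its NCP arrays spanned more than the total embryo range on both sides, and leaving out NCP replicate 1 gave -0.47 (adjusted p = 0.038) in place of -0.03 (95% interval -0.60 to 0.55, adjusted p = 0.94).

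The other 13 *Fgf* genes had group means of 5.39 to 6.45 in NCPs, all under the floor, and 4.71 to 7.04 in total embryo. As deposited 6 of them were higher in NCPs and none lower (39.6% and 27.5% of all probe sets), and 7 did not pass. Genes of their levels in total embryo had median log2 fold changes of -0.69 to 1.06. Those of the 13 ran from -0.64 for *Fgf7*, a mesenchymal ligand for epithelium, to 1.38 for *Fgf16*, a ligand of heart and brown fat. After level adjustment the 13 ran from -0.42 for *Fgf6*, a muscle FGF, to 0.40 for *Fgf4*, a ligand of blastocyst and limb ridge, and none passed (limma). Of the 6, *Fgf22* was 0.21 (adjusted p = 0.274) and *Fgf11* 0.33 (adjusted p = 0.069) without NCP replicate 3, and *Fgf22* also lost its call without any one of total embryo replicates 2 to 6. *Fgf20*, a ligand of the inner ear, was 0.43 (adjusted p = 0.043) without NCP replicate 1. *Fgf10*, the mesenchymal ligand of lung and limb budding, read 5.06, 6.66 and 6.85 in NCPs and 5.35 to 6.09 (median 5.69) in total embryo. NCP replicate 1 was the lowest of all 10 arrays and the others the highest, and its log2 fold change was 0.52 (95% interval -0.18 to 1.21, adjusted p = 0.171), or 1.08 (adjusted p = 0.000516) without that array.

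None of the 4 Sprouty genes, which encode inhibitors of Ras and ERK signalling downstream of receptor kinases, passed in either direction, as deposited or after level adjustment (limma). At an unadjusted p under 0.05 1 of them, *Spry2*, passed as deposited, and 0 after level adjustment. *Spry2* read 3.81, 6.86 and 6.56 in NCPs, against 6.54 to 7.24 (median 6.87) in total embryo. NCP replicate 1 was far below the other 9 arrays, which overlapped. Its log2 fold change was -1.14 (95% interval -2.22 to -0.07, adjusted p = 0.057), and -0.17 (adjusted p = 0.482) without NCP replicate 1, -1.70 (adjusted p = 0.011) without NCP replicate 2 and -1.55 (adjusted p = 0.027) without NCP replicate 3.

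*Spry1*, needed for a single ureteric bud, read 6.63, 6.34 and 6.13 in NCPs and 6.22 to 6.50 (median 6.28) in total embryo. The ranges overlapped, and the log2 fold change was 0.01 (95% interval -0.33 to 0.36, adjusted p = 0.937). *Spry3* read 6.43, 5.76 and 5.18 in NCPs and 4.89 to 5.72 (median 5.31) in total embryo, with NCP replicate 1 well above the rest. Its log2 fold change was 0.50 (95% interval -0.04 to 1.05, adjusted p = 0.095). *Spry4*, a common FGF response gene, read 6.54, 6.31 and 5.34 in NCPs and 5.86 to 6.08 (median 5.94) in total embryo. NCP replicate 3 was below the total embryo arrays and the other two above, and the log2 fold change was 0.12 (95% interval -0.36 to 0.60, adjusted p = 0.637). Without NCP replicate 3 *Spry3* was 0.81 (adjusted p = 0.01) and *Spry4* 0.48 (adjusted p = 0.013).

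The Spred genes encode membrane-bound relatives of Sprouty that bring neurofibromin to Ras, and *Spred1* and *Spred2* were lower in NCPs as deposited. *Spred1* read 6.88, 6.52 and 6.73 in NCPs, against 8.02 to 8.46 (median 8.26) in total embryo. The groups did not overlap, and the log2 fold change was -1.57 (95% interval -1.91 to -1.22, adjusted p = 2.87e-06). Genes of its level had a median of -1.78, and after level adjustment it was 0.11 (adjusted p = 0.665). *Spred3* read 6.56, 6.44 and 5.29 in NCPs and 5.75 to 5.95 (median 5.88) in total embryo. NCP replicate 3 lay below the total embryo arrays and the other two above, with a log2 fold change of 0.23 (95% interval -0.28 to 0.75, adjusted p = 0.396).

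*Spred2* read 7.64, 7.88 and 7.36 in NCPs, against 8.23 to 8.93 (median 8.69) in total embryo. Every NCP array was below every total embryo array and above its own floor. As deposited the log2 fold change was -1.04 (95% interval -1.45 to -0.62, adjusted p = 0.000392), while the 500 genes of its level had a median of -2.13. After level adjustment the direction turned, to 0.89 (95% interval 0.41 to 1.36, adjusted p = 0.016), so *Spred2* was lower in NCPs by its level and higher relative to genes equally bright in total embryo. Its further probe set gave -1.21 (adjusted p = 0.000734) as deposited and 0.65 (adjusted p = 0.064) after level adjustment.

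*Dusp6*, the phosphatase that inactivates ERK, read 6.09, 5.02 and 6.30 in NCPs, against 6.33 to 7.21 (median 6.62) in total embryo. The NCP arrays were all lower, NCP replicate 2 by far and NCP replicate 3 by little. That gave a log2 fold change of -0.91 (95% interval -1.49 to -0.32, adjusted p = 0.00975), and -0.52 (adjusted p = 0.059) without NCP replicate 2. After level adjustment it was -0.56 (95% interval -1.12 to -0.00113, adjusted p = 0.149).

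The *Etv* genes encode ETS factors that carry the FGF response into transcription, and they moved in both directions. *Etv4* read 6.56, 6.52 and 6.21 in NCPs, against 4.95 to 5.91 (median 5.44) in total embryo. All NCP arrays were higher, and the log2 fold change was 1.05 (95% interval 0.60 to 1.51, adjusted p = 0.000709). It was 0.39 (adjusted p = 0.204) after level adjustment. *Etv1* read 6.24, 5.79 and 6.0 in NCPs, against 7.01 to 7.37 (median 7.15) in total embryo, with the groups well apart. Its log2 fold change was -1.16 (95% interval -1.50 to -0.82, adjusted p = 2.83e-05), and the level-adjusted value was -0.40 (adjusted p = 0.075). The further probe set annotated to *Etv1* gave -0.96 (adjusted p = 0.000143), and -0.45 (adjusted p = 0.067) after level adjustment.

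*Etv5* read 6.79, 6.79 and 5.87 in NCPs, against 7.47 to 8.44 (median 7.87) in total embryo. NCP replicate 3 was the lowest and the groups did not overlap. As deposited the log2 fold change was -1.42 (95% interval -1.95 to -0.90, adjusted p = 0.000204), while the level-adjusted value was -0.03 (adjusted p = 0.962), with neighbours at -1.44. The 2 probe sets annotated to *Etv5* disagreed in size, since the other gave -0.31 (adjusted p = 0.092).

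**Figure D4:**
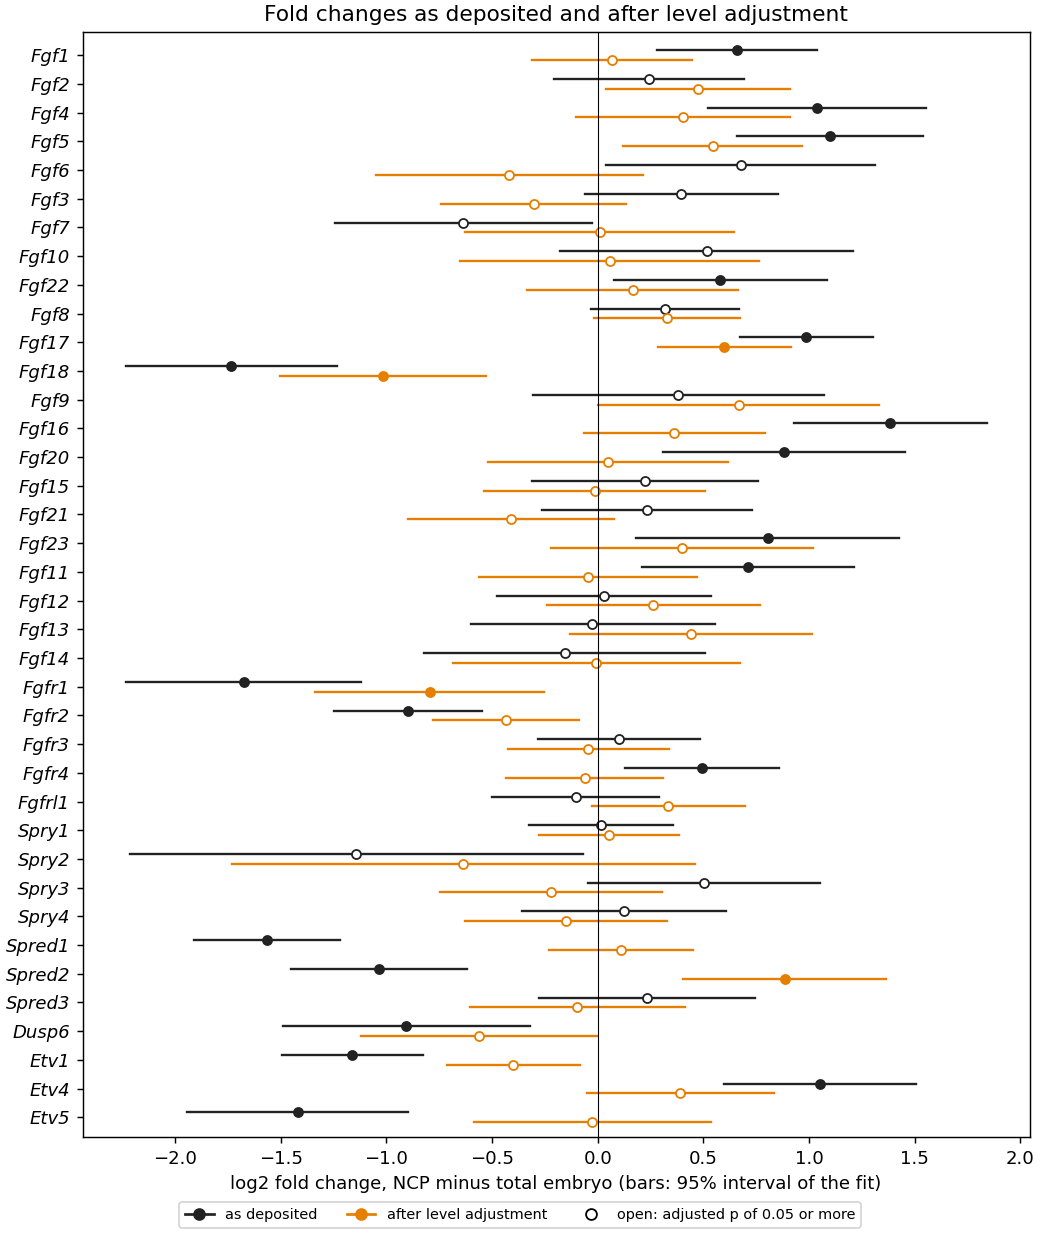
Log2 fold change (NCP minus total embryo) of each member with the 95% interval of the limma fit, as deposited (black) and after level adjustment (orange), with open points for an adjusted p of 0.05 or more. 19 members pass as deposited and 4 after level adjustment, and *Spred2* passes on opposite sides of 0.

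Promoters are shown for *Fgf18*, *Spred2* and *Dusp6*, as members called above, and for *Spry2*, as the feedback gene whose window held the motif searched. RefSeq promoters (GRCm38.p6, 250 bases before to 50 after each gene's start, on the gene's strand) were matched for 28 of the 38 members. The core CCGGAA, which ETS factors can bind, was searched on both strands (TTCCGG on the other) and stands in capitals where found. The windows shown are *Fgf18* at chr11:33147351-33147650, minus strand, *Spry2* at chr14:105896770-105897069, minus strand, *Spred2* at chr11:19924192-19924491, plus strand and *Dusp6* at chr10:99262981-99263280, plus strand.
Fgf18: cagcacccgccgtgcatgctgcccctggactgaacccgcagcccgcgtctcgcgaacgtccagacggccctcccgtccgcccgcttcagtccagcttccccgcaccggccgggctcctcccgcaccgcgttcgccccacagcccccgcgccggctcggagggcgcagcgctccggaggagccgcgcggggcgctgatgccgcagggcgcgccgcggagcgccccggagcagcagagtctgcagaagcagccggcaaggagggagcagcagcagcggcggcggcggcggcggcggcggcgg
Spry2: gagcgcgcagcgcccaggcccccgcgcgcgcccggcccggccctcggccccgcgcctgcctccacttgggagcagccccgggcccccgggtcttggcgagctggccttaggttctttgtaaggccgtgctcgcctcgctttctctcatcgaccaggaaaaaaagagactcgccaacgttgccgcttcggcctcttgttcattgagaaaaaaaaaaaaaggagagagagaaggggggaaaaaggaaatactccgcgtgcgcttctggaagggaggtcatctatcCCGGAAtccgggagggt
Spred2: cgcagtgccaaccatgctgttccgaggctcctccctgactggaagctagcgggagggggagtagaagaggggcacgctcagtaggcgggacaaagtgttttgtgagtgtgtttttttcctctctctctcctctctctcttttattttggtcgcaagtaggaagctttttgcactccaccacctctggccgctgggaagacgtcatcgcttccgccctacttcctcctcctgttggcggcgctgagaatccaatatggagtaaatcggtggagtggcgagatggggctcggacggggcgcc
Dusp6: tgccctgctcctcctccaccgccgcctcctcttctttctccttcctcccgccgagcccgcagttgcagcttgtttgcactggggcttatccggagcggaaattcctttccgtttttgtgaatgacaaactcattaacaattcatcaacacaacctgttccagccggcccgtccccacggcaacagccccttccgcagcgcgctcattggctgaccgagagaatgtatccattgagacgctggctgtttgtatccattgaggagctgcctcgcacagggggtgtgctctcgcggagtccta

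Of these windows only that of *Spry2* held the core, once, at position 34 after the start. The core was in promoters of 5 of the 28 matched members (17.9%), *Fgf5*, *Fgf12*, *Fgfr4*, *Fgfrl1* and *Spry2*, against 16.7% of the 27025 genes in the table outside the chromosome left out here. Among matched members called as deposited, 2 of 6 higher ones and 0 of 7 lower ones held it, numbers too small to read against that share. These matches describe letters in a window and no binding was measured.

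Members varied more among NCP arrays than among total embryo arrays. The SD was larger in NCPs for 32 of 38 members (84.2%), close to the 83.0% of all genes, with medians of 0.55 in NCPs and 0.20 in total embryo. By group mean 11 of the 38 members were above the floor in NCPs and 32 in total embryo. Of all 19937 genes, 5286 were above it in NCPs and 14393 in total embryo. On single arrays 13, 4 and 11 members were above their own array's floor for NCP replicates 1, 2 and 3, against 28 to 33 on the total embryo arrays. The members' range of group means was 2.24 in NCPs and 3.95 in total embryo. The spread in total embryo is partly one between repeat arrays of 1 RNA.

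All 3 NCP arrays share a day code in their names with total embryo replicate 1 alone. Against that array, 0 members passed in either direction (limma, 1 higher and 2 lower at an unadjusted p under 0.05), with 1055 probe sets called in all. The 4 leading genes as deposited were there at 1.17 for *Fgf17*, -1.51 for *Fgf18*, -1.22 for *Fgfr1* and -0.60 for *Spred2*. In each of them all NCP arrays lay on 1 side of all total embryo arrays. No choice of control arrays could therefore turn these signs, and the signs add no support. Against the 3 total embryo arrays of the NCP label series, 6 members were higher and 7 lower (26.8% and 19.5% of all probe sets). These 4 genes were at 1.04, -1.65, -1.43 and -0.83 in that comparison.

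Of 50 other FGF pathway genes listed, 43 were measured. As deposited 4 were higher in NCPs and 19 lower (39.6% and 27.5% of all probe sets), with a median log2 fold change of -0.47, against 0.08 for all genes. After level adjustment 5 were higher and 3 lower (10.3% and 8.29% of all probe sets), and the median was 0.022, against -0.034 for all genes. Those with the largest increases as deposited were *Fos*, an immediate early gene, at 1.18 (adjusted p = 0.000183) and *Gpc2*, a heparan sulfate proteoglycan, at 0.72 (adjusted p = 0.0067). *Ext1*, which builds heparan sulfate chains, had -2.88 (adjusted p = 5.59e-07) and the proteoglycan *Gpc3* -2.73 (adjusted p = 1.03e-06), the largest decreases as deposited. After level adjustment *Fos* was 0.71 (adjusted p = 0.026) and *Ext1* -1.0 (adjusted p = 0.02), while *Gpc2* at 0.27 (adjusted p = 0.381) and *Gpc3* at -0.57 (adjusted p = 0.071) did not pass. Of 19 co-receptors and heparan sulfate genes 1 was higher and 9 lower as deposited, and 1 higher and 3 lower after level adjustment. Of 13 adaptors and kinases 2 were higher and 8 lower as deposited, and 2 higher and 0 lower after level adjustment (limma). Of 11 other feedback and response genes 1 was higher and 2 lower as deposited, and 2 higher and 0 lower after level adjustment (limma). *Fos*, the only gene of those 11 that was higher as deposited, read 6.96, 6.31 and 7.25 in NCPs. In total embryo it read 5.48 to 5.90 (median 5.64), with no overlap.

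Markers of the sorted cells and of other tissues were read in the same way. *Sox10*, the gene whose regulatory region drives the sort marker, was higher in NCPs at 1.0 (adjusted p = 0.000278), as was the crest factor *Foxd3* at 1.33 (adjusted p = 0.000337), but the crest receptors *Erbb3* and *Ednrb* were lower, at -1.20 (adjusted p = 0.000254) and -1.35 (adjusted p = 0.00014). After level adjustment *Sox10* was 1.22 (adjusted p = 0.000473), *Foxd3* 0.78 (adjusted p = 0.039) and *Erbb3* -0.95 (adjusted p = 0.0074), while *Ednrb* changed sign to 0.29 (adjusted p = 0.34) and did not pass. *Ret* did not pass. The 5 measured crest markers summed to 31.5 to 34.9 in NCPs and 32.5 to 33.9 in total embryo. All 6 mesenchyme, 4 epithelium, 3 endothelium, 3 macrophage, 3 striated muscle and 3 liver markers were lower as deposited, where 27.5% of all probe sets were. After level adjustment 4 mesenchyme, 2 epithelium, 3 striated muscle and 3 liver markers were lower, and 0 endothelium and 0 macrophage markers (limma; 8.29% of all probe sets). Summed log2 levels of the mesenchyme markers were 36.8 to 40.6 in NCPs and 56.2 to 59.0 in total embryo, and those of the epithelium markers 22.8 to 25.6 in NCPs and 32.3 to 35.2 in total embryo. The endothelium markers summed to 18.1 to 19.3 in NCPs and 23.2 to 24.4 in total embryo, and the macrophage markers to 18.4 to 20.3 in NCPs and 23.6 to 25.7 in total embryo. Striated muscle markers summed to 18.0 to 19.5 in NCPs and 30.8 to 31.9 in total embryo, and liver markers to 18.1 to 18.7 in NCPs and 36.3 to 37.8 in total embryo. Of the blood markers, *Hba-x* was higher and *Alas2* lower as deposited, and after level adjustment only *Hba-x* passed, still higher. Blood marker sums were 12.9 to 13.6 in NCPs and 14.8 to 15.5 in total embryo. Of 4 neuronal markers 1 was higher and 2 were lower as deposited, and 1 was higher and 0 lower after level adjustment (limma). After adjustment *Prph* was the higher gene, at 0.77 (adjusted p = 0.038), while *Stmn2* (0.30) and *Tubb3* (-1.14) did not pass. Neuronal marker sums were 25.1 to 29.5 in NCPs and 31.3 to 34.5 in total embryo. Values on this scale have no zero, so none could be called absent. The sums also hold each group's background, with olfactory and vomeronasal receptor medians of 5.47 in NCPs and 3.80 in total embryo. They were not tested and do not measure the share of a cell type. *Fgf18*, *Fgf7*, *Fgfr1* and *Fgfr2* are used by mesenchyme or epithelium in many organs, and the part of those cell types in the members' differences was not tested. In RNA of mixed tissue, fewer cells of a type and less RNA per cell cannot be told apart.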

How the data were processed

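The authors deposited log2 values, for which the submitters' processing notes name RMA (robust Multi-Array Average) and Affymetrix Expression Console 1.1. Which arrays were normalized together is not given in the sources used here. The labels and the study's methods name different RNA labelling kits. Arrays of 3 NCP and 7 total embryo samples were grouped by their labels, and later-stage ganglia are not analysed here. Control probe sets (6568 of 34760) were left out, and 28192 were tested with limma 3.58.1 in R 4.3.3 (prior of 4.65 degrees of freedom, prior SD 0.32) with Benjamini-Hochberg adjustment over all of them, at an adjusted p of 0.05. A single symbol was given for 21640 probe sets, several for 1321 and none for 5231, by platform annotation. For level adjustment, an array's difference from the total embryo mean was smoothed on that mean by lowess (span 0.3) and the smooth curve was subtracted. The fit was tested on arrays simulated from the total embryo means with independent noise. The simulated arrays had neither the compression of the NCP arrays nor repeat arrays of 1 RNA, so that test does not cover them. Values on every array are given for receptors, Sprouty, Spred and *Etv* genes and *Dusp6*, and for *Fgf* genes that passed both as deposited and after level adjustment or were above the floor in NCPs. Other *Fgf* genes are summarised, and *Fgf10* is given by array because of its values. Up to 2 other pathway genes were named in each direction. Members and lists were chosen with earlier results of these data known. Replicate numbers only name arrays. Figures were drawn with matplotlib 3.10.9.

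The alternatives were other scalings, arrays averaged or blocked by RNA code, fewer control arrays, a filter on dim probe sets, probe sets averaged per gene, an intensity trend in the prior, and each array left out. Some listed pathway genes and markers are not reported here.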

Additional observations from a re-analysis of the deposited data

Results flagged for a closer look

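In 2 of the 38 members, 1 of the 7 total embryo arrays stood apart from the others by Dixon's criterion, and chance alone flags about 1 group in 20. *Fgf3*, a ligand of the inner ear, read 5.12 on total embryo replicate 2 and 5.32 to 5.40 on the other arrays. *Fgf14*, an intracellular FGF, read 5.57 on total embryo replicate 3 and 6.36 to 6.86 on the other arrays.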

How the results depend on the processing

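As deposited 11 members were higher and 8 lower (39.6% and 27.5% of all probe sets, and so on below). With RNA code as a random block 5 were higher and 7 lower (28.4% and 20.2%). Arrays averaged per RNA code gave 3 higher and 7 lower (20.4% and 14.8%). Against control arrays of the NCP label series 6 were higher and 7 lower (26.8% and 19.5%). Quantile normalization gave 6 higher and 7 lower (22.6% and 20.0%). Cyclic loess gave 5 higher and 5 lower (16.9% and 16.0%). With level adjustment 2 were higher and 2 lower, and 0 in each direction with arrays also averaged per RNA code (limma, 1 member lower and 0 higher at an unadjusted p under 0.05) or against the same-day array alone. With level adjustment and 1 NCP array left out, 3 to 4 were higher and 3 to 4 lower. Of all probe sets, 12.5% to 13.7% were higher there and 10.6% to 12.3% lower. Some calls were gained: under cyclic loess *Fgf2* (0.63) and *Fgf9* (0.88) were higher and *Spred2* turned to higher, *Fgf8* (0.62) after quantile normalization, and *Fgf7* (-0.76) and *Spry2* (-1.26) were lower with arrays centred on medians. The joint settings were chosen after seeing the data. Leaving out 1 array as deposited gave 10 to 14 higher and 8 to 9 lower.

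Signs that turned under level adjustment were *Spred2* 0.89, *Spred1* 0.11, *Fgf11* -0.045 and *Fgfr4* -0.061 among called members, and *Fgf13* 0.44, *Fgf15* -0.015, *Fgf21* -0.41, *Fgf3* -0.30, *Fgf6* -0.42, *Fgf7* 0.01, *Fgfr3* -0.044, *Fgfrl1* 0.33, *Spred3* -0.10, *Spry3* -0.22 and *Spry4* -0.15 among the rest. With arrays also averaged per RNA code, *Spred2* was 0.89, and without NCP replicate 1, 2 and 3 it was 0.91, 0.62 and 1.13. Under cyclic loess the turned values were *Fgf11* -0.022, *Fgf13* 0.57, *Fgf15* -0.000462, *Fgf21* -0.48, *Fgf3* -0.34, *Fgf6* -0.48, *Fgfr3* -0.039, *Fgfr4* -0.055, *Fgfrl1* 0.42, *Spred1* 0.064, *Spred2* 0.94, *Spred3* -0.10, *Spry3* -0.24 and *Spry4* -0.17. After quantile normalization they were *Fgf13* 0.45, *Fgf21* -0.40, *Fgf3* -0.15, *Fgf6* -0.23, *Fgfrl1* 0.31, *Spred2* 0.29, *Spry3* -0.013 and *Spry4* -0.068. Arrays centred on medians gave *Fgf12* -0.092, *Fgfr3* -0.021 and *Spry1* -0.11, the same-day array *Fgf13* 0.16 and *Fgfrl1* 0.34, and the same label series *Fgf12* -0.057 and *Fgfrl1* 0.085. The cause was not tested.

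With 1 array left out, members that did not pass as deposited ranged across 0: *Fgf12* -0.059 to 0.14, *Fgf13* -0.47 to 0.33, *Fgf14* -0.35 to 0.21, *Fgf15* -0.085 to 0.56, *Fgf21* -0.069 to 0.50, *Fgf9* -0.04 to 0.90, *Fgfr3* -0.10 to 0.24, *Fgfrl1* -0.20 to 0.028, *Spry1* -0.12 to 0.13 and *Spry4* -0.12 to 0.48. As deposited, *Fgf3*, *Fgf6*, *Fgf8* and *Spred3* passed without NCP replicate 3, *Fgf15* without NCP replicate 2, and *Fgf7* without NCP replicate 2 or total embryo replicate 3. The filter on dim probe sets left 32 members. No paired analysis was possible because the labels give no replicate numbers that NCP and total embryo arrays share. Signal over the floor limits the dimmer members. In NCPs 27 of 38 members were at or under the floor, as were 14651 of all 19937 genes.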
